A study of Mus musculus with 20 samples.

Results

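Fat stored in adipocytes is released by intracellular lipolysis, and 8 genes of this pathway were followed: Pnpla2, Pnpla3, Lipe, Mgll, Abhd5, G0s2, Pde3b and Prkar2b. The rule names them by their place in the pathway and uses no measured value, and they are 8 of the 36611 genes into which the deposited transcripts were summed. The tissue was inguinal white adipose tissue (iWAT), a subcutaneous fat depot, of 20 female C57BL/6 mice, with the floxed allele on C57BL/6 N Tac and the Cre line on C57BL/6 J. Knockout mice carried a Tmem120a allele flanked by loxP sites (Tmem120a fl/fl) and Cre under the adiponectin promoter, which is active in mature adipocytes, and Tmem120a encodes a nuclear envelope protein. Control mice were Tmem120a fl/fl littermates without Cre, so that both groups carried the floxed allele. Mice of each genotype received a diet with 10.5% fat (LFD) or with 58% fat (HFD) for 15 weeks and were 6 months old, with 5 mice in each of the 4 groups, and all were fasted before dissection. Because the deletion is limited to adipocytes, the other cells of the tissue keep Tmem120a. Each library is 1 mouse, and libraries are named by group and animal number.

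Lipolysis takes triglyceride apart in steps. Adipose triglyceride lipase (Pnpla2) removes the fatty acid that starts the breakdown, hormone-sensitive lipase (Lipe) cleaves the resulting diglyceride, and monoglyceride lipase (Mgll) releases the last fatty acid and glycerol. ABHD5 (Abhd5, CGI-58) activates PNPLA2, and the G0/G1 switch protein G0S2 (G0s2) inhibits it. PNPLA3 is a relative of PNPLA2 that binds ABHD5 and is known in liver and fat as a gene of the fed state. Catecholamines raise cAMP and through it protein kinase A, of which Prkar2b encodes the regulatory subunit that predominates in white fat. Insulin acts against them through phosphodiesterase 3B (Pde3b), which degrades cAMP.

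The libraries held between 54605101 and 92387737 estimated counts, and a member held at least 2466 counts in each library, so that counting error was small beside the spread between mice. Of the 96533 transcripts listed, between 32.4% and 54.5% had a count, with the fewest in knockout HFD 18 (32.4%) and knockout LFD 9 (33.8%). The 17 markers of white adipocytes were all present, with Adipoq at a mean of 904 TPM in the control LFD group and 1235 TPM in the control HFD group. Tmem120a lay between 57.9 and 131.9 TPM in control LFD mice and between 21.5 and 74.0 TPM in knockout LFD mice. It lay between 83.3 and 195.7 TPM in control HFD mice and between 29.5 and 89.7 TPM in knockout HFD mice, so that the highest knockout library overlapped the lowest control on each diet. With both diets in 1 fit, Tmem120a was lower in knockout, with a log2 fold change of -1.64 (SE 0.237, adjusted p = 0.00452, edgeR quasi-likelihood test). Within a diet the log2 fold change was -1.67 on HFD (SE 0.291) and -1.61 on LFD (SE 0.343), and neither passed the threshold (adjusted p = 0.173 and 0.929). Markers of skeletal muscle summed to between 47.5 and 127.8 TPM in control HFD libraries, and to between 69.6 and 4218 TPM in the other 3 groups.

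The sequences just upstream of the starts of 3 members are shown because these genes had the largest positive diet differences in the values below, followed by that of Pnpla2, whose difference was negative. They are the 250 bases before the annotated start, taken from RefSeq on assembly GRCm38.p6, where 7 of the 8 members had an entry. Capitals mark any match, on either strand, to CACGTG (E box), AGGTCA (nuclear receptor motif), CCAAT (a box of many promoters), GGGCGG (GC box), TGACG (cAMP element core), TATAAA or AGAACA (glucocorticoid receptor motif). Mgll starts on the plus strand (chr6:88724162-88724411), G0s2 on the minus strand (chr1:193273189-193273438), Pnpla3 on the plus strand (chr15:84167566-84167815) and Pnpla2 on the plus strand (chr7:141454938-141455187).
Mgll: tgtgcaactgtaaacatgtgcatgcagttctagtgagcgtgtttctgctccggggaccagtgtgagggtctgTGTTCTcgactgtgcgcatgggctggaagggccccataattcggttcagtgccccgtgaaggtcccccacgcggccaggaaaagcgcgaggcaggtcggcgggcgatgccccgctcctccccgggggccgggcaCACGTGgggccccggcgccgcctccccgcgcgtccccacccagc
G0s2: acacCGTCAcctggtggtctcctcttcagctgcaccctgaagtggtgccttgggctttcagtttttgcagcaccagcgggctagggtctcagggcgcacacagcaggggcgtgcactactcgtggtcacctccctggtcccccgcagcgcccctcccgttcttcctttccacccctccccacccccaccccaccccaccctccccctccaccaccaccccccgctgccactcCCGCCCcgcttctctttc
Pnpla3: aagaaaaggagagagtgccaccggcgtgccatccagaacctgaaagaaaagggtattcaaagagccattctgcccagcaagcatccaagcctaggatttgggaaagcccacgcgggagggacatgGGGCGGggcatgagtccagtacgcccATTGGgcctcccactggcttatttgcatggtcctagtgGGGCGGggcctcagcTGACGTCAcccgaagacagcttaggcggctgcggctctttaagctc
Pnpla2: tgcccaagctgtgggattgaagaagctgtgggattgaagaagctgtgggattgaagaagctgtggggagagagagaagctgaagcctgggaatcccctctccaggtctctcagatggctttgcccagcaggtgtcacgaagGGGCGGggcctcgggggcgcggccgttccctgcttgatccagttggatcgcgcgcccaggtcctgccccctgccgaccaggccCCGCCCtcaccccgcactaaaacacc
These sequences were rich in G and C, with 68.0% for Mgll, 67.2% for G0s2, 58.4% for Pnpla3 and 63.2% for Pnpla2, against a median of 52.4% over the 32851 promoter entries of the table. Mgll held an E box 44 bases before the start, a motif found in 6.02% of all entries, and the first entries of Lipe and Prkar2b held an E box as well. A second Lipe entry (chr7:25390113-25390362, minus strand, not printed) held no match to any of the motifs. By the spacing of the starts it lies at that of Lipe-001, the transcript with most Lipe TPM below. A second Prkar2b entry held no match either. Pnpla3 held the cAMP element core on both strands in an overlapping palindrome, against 17.8% of entries with at least 1 core. G0s2 and Abhd5 each held the core once. GC boxes lay in the windows of G0s2, Pnpla3 and Pnpla2 shown here, in the first entries of Lipe and Prkar2b, in that of Abhd5, and in 32.7% of all entries. The Mgll window shown held none, while a second Mgll entry (chr6:88724454-88724703, plus strand, not printed) held a GC box at -121 from its start. A match is a description of letters and no evidence of binding.

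On NCBIM37 (mm9) the members lie apart from each other, with Pnpla2 (chr7:148641097-148646642, plus strand), Lipe (chr7:26164546-26183729, minus strand) and Pde3b (chr7:121558795-121682765, plus strand) on the same chromosome. Mgll spans chr6:88674406-88778354 (plus strand), Pnpla3 chr15:83998246-84019942 (plus strand) and Abhd5 chr9:122260726-122290642 (plus strand). G0s2 spans chr1:195098355-195099382 and Prkar2b chr12:32643341-32746161, both on the minus strand.

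Levels of the 8 genes are given in TPM (a level relative to the library that is corrected for transcript length, so that genes can be compared). Pnpla2 had the highest mean over the 20 libraries at 422 ± 81.4 TPM (SD), which placed it 161st of the 15574 genes that averaged 0.5 TPM or more. Prkar2b followed at 335 ± 76.3 TPM, Lipe at 170 ± 62.1 TPM, G0s2 at 135 ± 71.7 TPM, Mgll at 123 ± 50.3 TPM and Pde3b at 113 ± 17.95 TPM. Pnpla3 (49.8 ± 15.3 TPM) and Abhd5 (38.0 ± 11.1 TPM) were the lowest. Pnpla2 stood above Prkar2b in 16 of 20 libraries, Prkar2b above Lipe in 20 of 20 and Lipe above G0s2 in 16 of 20. G0s2 stood above Mgll in 11 of 20 and Mgll above Pde3b in 11 of 20, so that these 3 neighbours were not separated. Pde3b stood above Pnpla3 in 19 of 20 and Pnpla3 above Abhd5 in 16 of 20. The activator Abhd5 was thus listed at 38.0 TPM beside 135 TPM for the inhibitor G0s2 and 422 TPM for their target Pnpla2.

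TPM of a gene depends on which of its transcripts the reads are assigned to, and this differed among the members. Pnpla3 and G0s2 have 1 annotated transcript each. Lipe-001 carried 90.8% of Lipe TPM on average, and Mgll-001 carried 77.9% of Mgll TPM. Pnpla2 was spread over short models: Pnpla2-007, of 504 bases, carried 36.4% of TPM and 11.7% of counts, while another coding model of 1716 bases carried 28.9% of TPM and 50.6% of counts. Both start inside the gene, at 148641506 and 148642530 on mm9, where the gene starts at 148641097. The Pnpla2 window printed above need not lie just upstream of them. Pnpla2-008, a model annotated for nonsense-mediated decay, ranged from 1.46% to 52.5% of Pnpla2 TPM among libraries. Pde3b-001 carried 98.0% of counts and 69.8% of TPM, and the rest of the TPM lay mostly on the short retained-intron models Pde3b-002 (485 bases) and Pde3b-003 (719 bases). Most Prkar2b TPM, 83.2%, lay on Prkar2b-003, which the annotation lists as a target of nonsense-mediated decay and which is 3133 bases long against 3378 bases for the coding Prkar2b-001. The share of the most abundant transcript was tested for the 6 members with several transcripts in 4 comparisons, and none of the 24 tests passed (smallest adjusted p = 0.857, two-sided exact permutation tests with n = 5 per group). Counts relative to library size and to the length of the longest transcript placed Pnpla2 (191 TMM-scaled CPM per kb) above Lipe (153), G0s2 (148), Prkar2b (146) and Mgll (115). On that scale Lipe and G0s2 moved above Prkar2b, whereas Pde3b (52.4), Pnpla3 (42.8) and Abhd5 (22.2) again closed the order. The longest transcript need not be the one that carries the gene, so that this order depends on the length chosen. Lipe was divided by 3713 bases, while Lipe-001 has 2656 bases. Pnpla2 was divided by the 2625 bases of Pnpla2-001, which held 0.41% of Pnpla2 TPM.

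Whether loss of Tmem120a changed the lipolysis genes was asked on each diet. None of the 8 genes differed between knockout and control on HFD or on LFD in edgeR's quasi-likelihood test at an adjusted p under 0.1. Of all genes, 1 was of 15228 on HFD (0.00657% of those tested) and 1 of 15717 on LFD (0.00636%). At an unadjusted p under 0.05 no member passed on HFD or LFD, against 709 genes of all tested on HFD and 803 on LFD. DESeq2 called none of the 8 on either diet, and over all genes it called 100 on HFD and 17 on LFD.

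Among the 3 lipases in sequence, Pnpla2 was measured on HFD at 442, 469, 413, 368 and 362 TPM in control libraries 11 to 15 and at 421, 220, 413, 322 and 445 TPM in knockout libraries 17 to 21. Knockout HFD 18 held the lowest value, and the ranges overlapped. The log2 fold change of knockout against control was -0.24 (SE 0.248). Lipe was measured at 332, 204, 204, 133 and 143 TPM in control HFD mice and at 182, 89.1, 127, 117 and 249 TPM in knockout HFD mice. A group of 3 knockout libraries lay below every control, 1 lay above most of them, and the log2 fold change was -0.40 (SE 0.266). Mgll was measured at 241, 172, 177, 125 and 148 TPM in control HFD mice and at 160, 79.7, 102, 79.4 and 223 TPM in knockout HFD mice, a log2 fold change of -0.37 (SE 0.257). Again 3 knockout libraries lay below all controls while knockout HFD 21 lay near the top. The adjusted p of these 3 genes was 0.999 each. On LFD the log2 fold changes were -0.27 for Pnpla2 (SE 0.202), -0.19 for Lipe (SE 0.265) and -0.32 for Mgll (SE 0.203), with adjusted p of 0.933, 0.936 and 0.929.

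The regulators gave the same picture of overlapping groups. For the inhibitor G0s2 the difference of knockout from control was -0.15 on HFD (SE 0.317) and -0.56 on LFD (SE 0.375, adjusted p = 0.929). For the activator Abhd5 it was -0.12 on HFD (SE 0.167) and -0.26 on LFD (SE 0.184). Pnpla3 was the member with a positive value on both diets, at 0.14 (SE 0.206) and 0.13 (SE 0.155), apart from Pde3b. Prkar2b differed by -0.10 on HFD (SE 0.172) and by -0.26 on LFD (SE 0.167). For Pde3b the units parted: by TPM, 3 of 5 knockout libraries on HFD and 4 of 5 on LFD lay below every control of the same diet. Pde3b means were 96.3 ± 17.7 TPM in knockout and 120 ± 15.9 TPM in control on HFD, and 110.5 ± 15.96 TPM against 127 ± 8.1 TPM on LFD (SD, n = 5). In the count fit the log2 fold change of Pde3b was 0.020 (SE 0.142) on HFD and 0.011 (SE 0.243) on LFD, whereas limma on log2(TPM + 1) gave -0.32 and -0.21, and neither scale passed its test. The coding Pde3b-001 held a mean of 84.4% of Pde3b TPM in knockout and 66.3% in control libraries on HFD. On LFD it held 71.1% and 57.5% (exact permutation tests, adjusted p = 0.857 on HFD and 0.905 on LFD). The other models are the short retained-intron ones described above, and their part in the lower TPM was not tested.

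**Figure D1:**
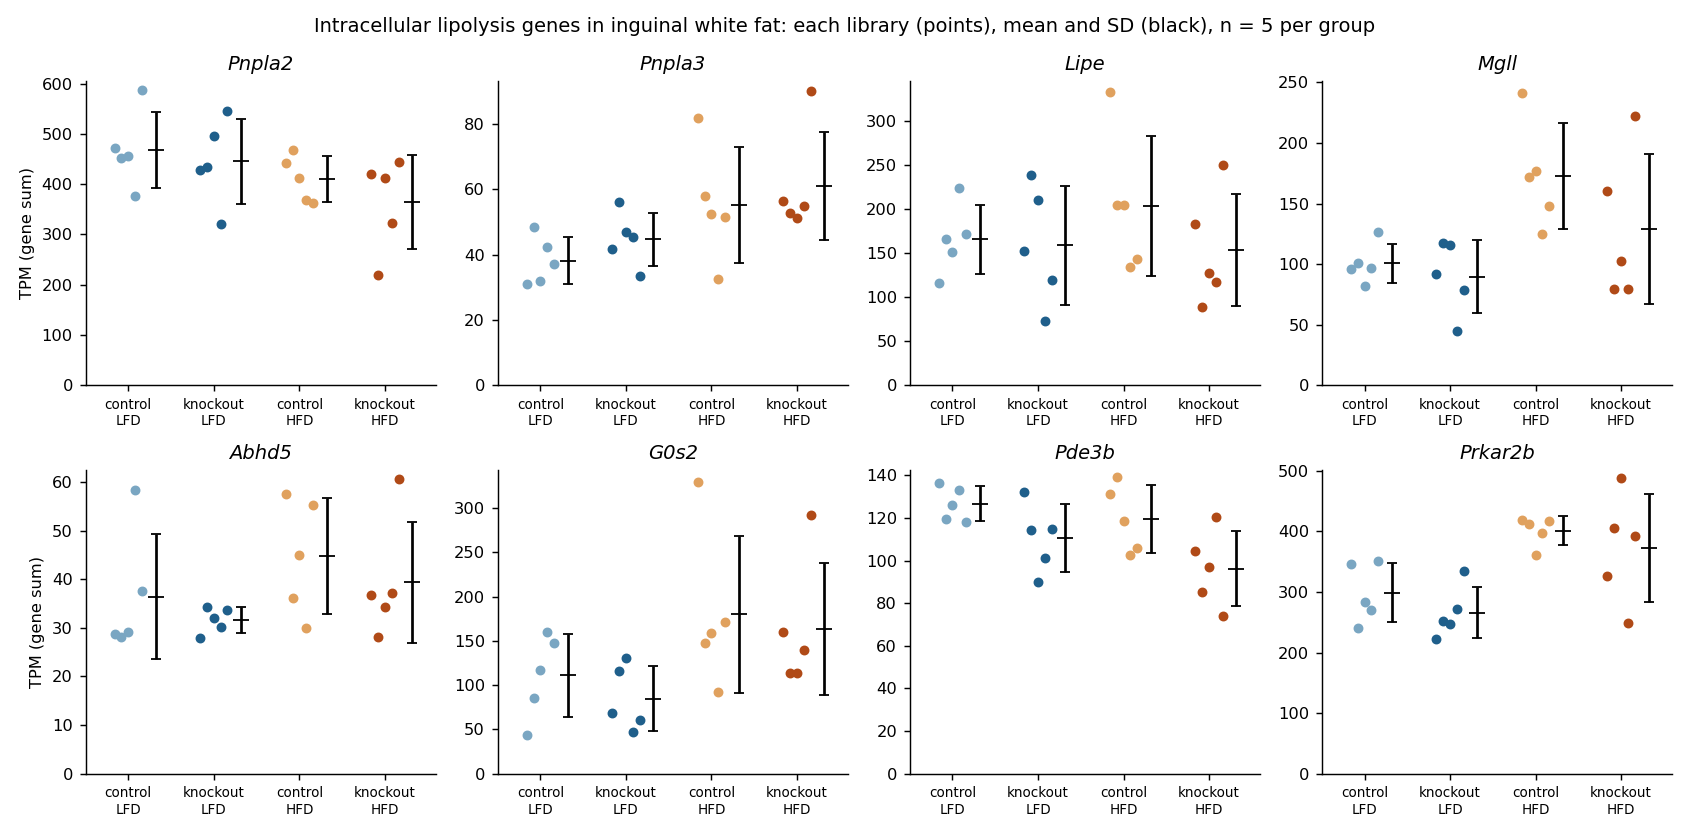
TPM of the 8 genes (vertical axis, from 0) in each of the 20 libraries, by group (horizontal axis), with the mean and SD of each group in black. Mgll and G0s2 sit higher in the HFD groups than in the LFD groups, and knockout and control overlap for every gene on each diet.

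With both diets in 1 fit, an analysis added after the separate ones, the genotype effect was negative for 6 of the 8 genes, with a median of -0.23 against -0.011 over all genes tested. With the covariates described below, 7 of the 8 were negative. The median was then -0.10 with adipocyte markers and -0.11 with transcripts detected. Several members varied together from mouse to mouse, so that their signs are not separate observations. No member was called (smallest adjusted p = 0.676, for Mgll at -0.35, SE 0.171), where 6 of 15574 genes were called (0.0385%). The genotype effect on HFD was also compared with that on LFD as an interaction. None of the 8 genes was called, nor was any of the 15574 genes tested (0.0%), with 560 genes at an unadjusted p under 0.05, and DESeq2 called none of the 8 and 17 of all genes. The largest value among members was 0.39 for G0s2 (SE 0.532), and the SE of each member was at least 0.241.

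Between diets more genes were called. In control mice Mgll, the lipase of the last step, was higher on HFD, and it was the only member called of the 8, where 9.32% of all genes tested were called. Mgll was measured at 95.9, 101, 81.9, 96.8 and 126 TPM in control LFD libraries 1 to 5 against the 125 to 241 TPM of control HFD given above. Of the HFD libraries 4 lay above all LFD libraries, and the fifth, control HFD 14, lay just under control LFD 5. The log2 fold change was 0.61 (SE 0.186, adjusted p = 0.0865, edgeR), a 1.52-fold difference. The call was close to the threshold. It was lost on leaving out control LFD 1 (adjusted p = 0.106), LFD 2 (0.183), LFD 3 (0.184), HFD 11 (0.141), HFD 12 (0.162) or HFD 13 (0.154), and with no filter on low values (0.118) or with 4 groups in 1 fit (0.165). It was also lost with adipocyte markers as a covariate, where Mgll stood at 0.19 with 17 markers (adjusted p = 0.367) and at 0.29 with 8 markers (adjusted p = 0.141). DESeq2 (0.0174) and limma (0.0285) kept it.

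In knockout mice no member passed on HFD against LFD, where 9.4% of the genes tested were called. Mgll was measured at 92.05, 118, 115, 44.8 and 78.3 TPM in knockout LFD libraries 6 to 10, and 2 of the 5 knockout HFD libraries lay above all of them. Its log2 fold change of 0.57 (SE 0.271, adjusted p = 0.273) was close to that of controls. The difference between both diet effects on Mgll, the interaction above, was -0.059 (SE 0.351). G0s2 had the largest diet value in knockout mice. It was measured at 68.8, 116, 131, 47.6 and 60.6 TPM in knockout LFD mice and at 160, 113, 114, 139 and 292 TPM in knockout HFD mice. All HFD libraries lay above the LFD median and 3 lay above every LFD library, with a log2 fold change of 0.91 (SE 0.305, adjusted p = 0.110). DESeq2 called G0s2 (adjusted p = 0.027), and edgeR did so without knockout LFD 8 (0.085) or without knockout HFD 18 (0.096). In control mice G0s2 was measured at 44.3, 85.1, 117, 160 and 147 TPM on LFD and at 329, 148, 159, 91.9 and 172 TPM on HFD, a log2 fold change of 0.50 (SE 0.383, adjusted p = 0.507).

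**Figure D2:**
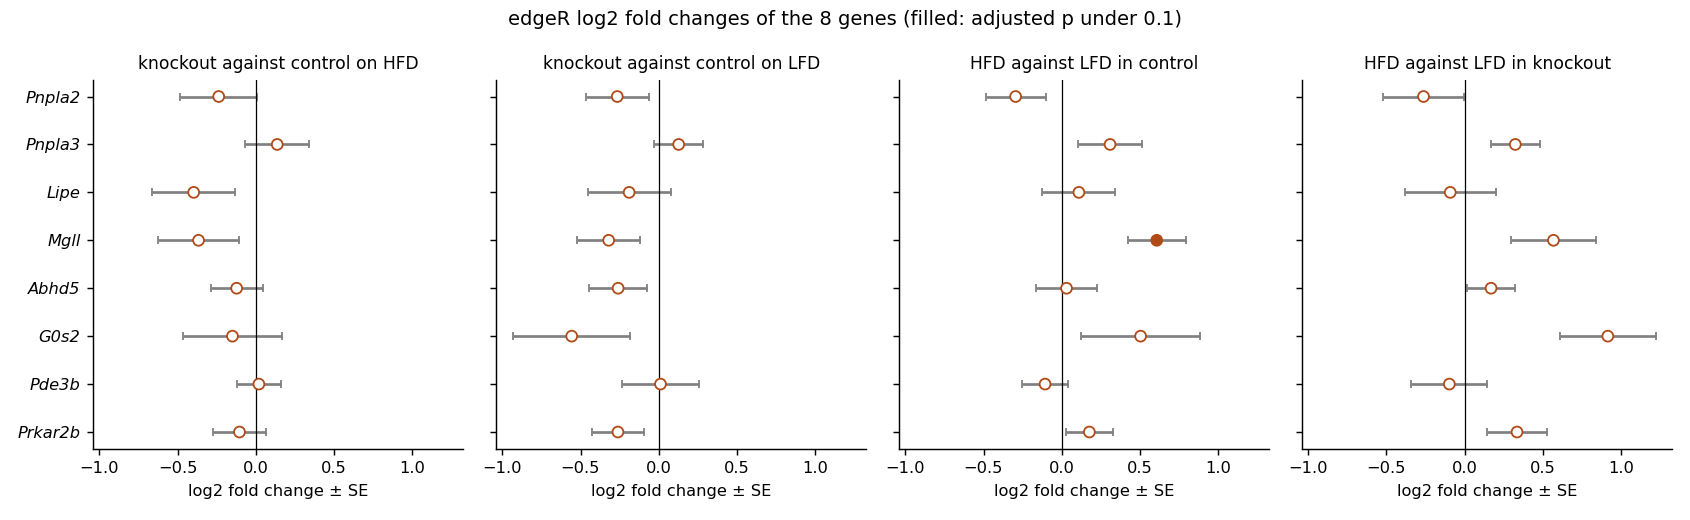
Log2 fold changes with their SE (horizontal axis) of the 8 genes (vertical axis) in the 4 comparisons of 5 against 5 libraries, where a filled point has an adjusted p under 0.1. Mgll at 0.61 in controls is the filled point, and G0s2 at 0.91 in knockout mice lies farthest from 0.

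The diet effect was also fitted over all 20 libraries with genotype as a term, again added after the separate fits. It called 2 of the 8 genes, both higher on HFD, where 25.2% of all genes tested were called, so that the share of members was that of the background. Mgll was higher by 0.59 on the log2 scale (SE 0.172, adjusted p = 0.0185), and the call held on leaving out each of the 20 libraries in turn. G0s2 was higher by 0.71 (SE 0.265, adjusted p = 0.0653). That call was lost without control LFD 2 (adjusted p = 0.107), knockout LFD 6 (0.110), knockout LFD 9 (0.1001), knockout LFD 10 (0.106), control HFD 11 (0.137) or knockout HFD 21 (0.141). Pnpla3 stood at 0.32 (SE 0.134, adjusted p = 0.102), and Prkar2b at 0.26 (SE 0.119, adjusted p = 0.137). Pnpla3 was called higher by DESeq2 (adjusted p = 0.0686), limma on log2(TPM + 1) (0.0258), edgeR with no filter (0.0894) and edgeR with length offsets (0.0683). Prkar2b was called higher by limma (0.00483) and with length offsets (0.0901), but not by DESeq2 (0.122). Over all genes DESeq2 called 4319 of 15431 for this comparison and limma on log2(TPM + 1) 4736 of 15574. Abhd5 (0.10, SE 0.127) and Lipe (0.012, SE 0.198) stood near 0. Pnpla2 (-0.28, SE 0.166, adjusted p = 0.272) and Pde3b (-0.10, SE 0.139) were below it. The median over the 8 genes was 0.18, against -0.026 over all genes. With length offsets Pnpla2 and Pde3b were called lower. That fit called 6 of the 8 genes, 4 higher and 2 lower, and its share over all genes is not given here.

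Prkar2b showed how far the unit matters. In controls it was measured at 347, 241, 284, 271 and 351 TPM on LFD and at 419, 413, 361, 397 and 417 TPM on HFD, so that every HFD library lay above every LFD library. It was the only 1 of the 8 genes without overlap in controls, where 9.78% of all genes did not overlap. None of the 8 was without overlap between the diets in knockout mice, where the background was 7.95%. Limma on log2(TPM + 1) called Prkar2b in controls (adjusted p = 0.0618), while the edgeR fit on TMM-scaled counts gave a log2 fold change of 0.18 (SE 0.151, adjusted p = 0.564). TPM were not scaled between libraries, and on that scale the median of all genes was 0.13 higher on HFD in controls, against -0.038 in the count fit. Prkar2b in knockout mice was measured at 223, 252.5, 248, 272 and 335 TPM on LFD and at 326, 406, 488, 250 and 393 TPM on HFD, and the groups overlapped, with knockout HFD 17 and 20 under knockout LFD 10.

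Ratios of 2 members within a library do not depend on how libraries are scaled. The ratio of Mgll to Lipe, the last lipase to the one before it, was 0.61, 0.50, 0.55, 0.63 and 0.66 in knockout LFD libraries and 0.88, 0.90, 0.81, 0.68 and 0.89 in knockout HFD libraries. All 5 HFD libraries lay above all 5 LFD libraries. The difference of means was 0.50 on the log2 scale (two-sided exact permutation p = 0.00794, the smallest that groups of 5 allow, adjusted p = 0.127 over 16 tests). In controls the same ratio differed by 0.50 as well, with 4 of 5 HFD libraries above all LFD libraries (exact permutation p = 0.0317, adjusted p = 0.159). Pnpla3 to Pnpla2 was higher on HFD by 0.67 in controls and by 0.74 in knockout mice (exact permutation p = 0.0397 each, adjusted p = 0.159 each). Lipe to Pnpla2 differed by 0.43 and 0.29, within the spread (adjusted p = 0.435 and 0.533). None of the 16 planned ratios passed at an adjusted p under 0.1 on TPM. On TMM-scaled counts 4 did: Mgll to Lipe in controls and in knockout mice and Lipe to Pnpla2 in controls (adjusted p = 0.0423 each, exact permutation tests), and Pnpla3 to Pnpla2 in controls (adjusted p = 0.0952). The library factor divides out of these ratios too, apart from the 1 added to each value. Unlike TPM, however, the counts are not corrected for the length of the transcripts they were assigned to. The part of that correction in the 4 calls was not tested.

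The balance of activator and inhibitor was compared in the same way. Abhd5 to G0s2 was 0.41, 0.30, 0.25, 0.64 and 0.56 in knockout LFD libraries and 0.23, 0.25, 0.31, 0.27 and 0.21 in knockout HFD libraries, a difference of -0.69 on the log2 scale (exact permutation p = 0.0556, adjusted p = 0.178). In controls the difference was -0.40 (exact permutation p = 0.230, adjusted p = 0.460). The ratio of the inhibitor G0s2 to its target Pnpla2 was chosen after the values had been seen and is given as a description, with no test. It was 0.16, 0.27, 0.26, 0.15 and 0.11 in knockout LFD libraries and 0.38, 0.52, 0.28, 0.43 and 0.66 in knockout HFD libraries, a difference of 1.26 on the log2 scale. In controls the difference was 0.88. Between genotypes none of the 4 planned ratios passed on either diet, with differences between -0.21 and 0.38 and unadjusted exact permutation p of 0.175 or more.

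**Figure D3:**
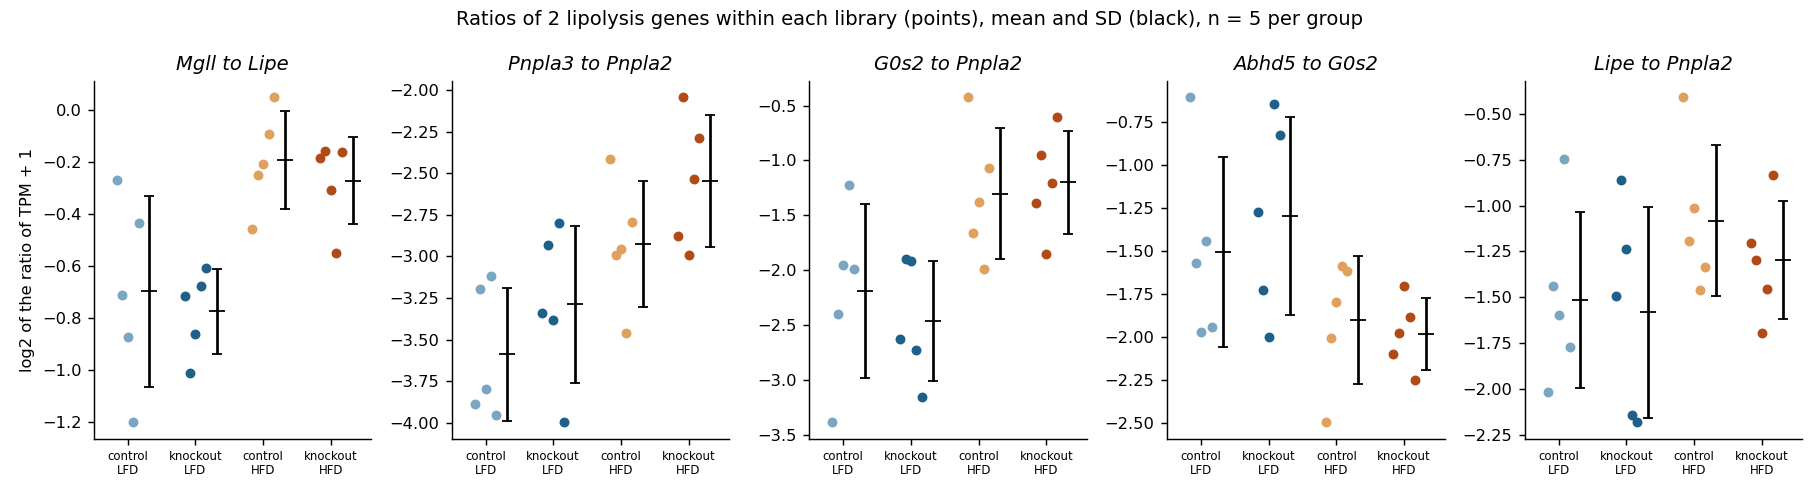
Log2 ratios of TPM + 1 of pairs of lipolysis genes (vertical axis) in each library by group (horizontal axis), with the mean and SD of each group in black. The 5 knockout HFD libraries lie above the 5 knockout LFD libraries for Mgll to Lipe and for G0s2 to Pnpla2.

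The mean of the adipocyte markers was higher on HFD, though not each marker, and the members followed that mean to different degrees. In a whole tissue, fewer adipocytes and less of a transcript per adipocyte cannot be told apart. The mean log2(TPM + 1) of the 17 adipocyte markers was 8.36 ± 0.156 in control LFD, 8.16 ± 0.285 in knockout LFD, 8.67 ± 0.298 in control HFD and 8.56 ± 0.315 in knockout HFD libraries (SD, n = 5). It was highest in control HFD 11 (9.14) and knockout HFD 21 (8.999) and lowest in knockout LFD 9 (7.74). Control HFD 11 was among the highest 3 of 20 libraries for 6 of the 8 genes, and knockout HFD 21 for 5 of the 8. Knockout LFD 9 was among the lowest 3 for 4 of the 8 genes, as was knockout HFD 18. Some of the 17 markers answer to diet themselves, such as Lep, at 169 TPM in control LFD and 804 TPM in control HFD mice. In controls Cfd (2444 to 1225 TPM), Adig (83.0 to 47.9), Slc2a4 (43.4 to 34.6) and Gpd1 (163 to 144) had lower means on HFD. The rest of the 17 had higher ones. In knockout mice Adig, Slc2a4 and Gpd1 were lower on HFD as well, and Cfd was not. Adig is also in the smaller set of markers used below.

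With the marker mean as a covariate in the fit over both genotypes, other members were called. Mgll stood at 0.027 (SE 0.081) and G0s2 at 0.027 (SE 0.214), and neither was called. Pnpla2 was lower on HFD, at -0.76 on the log2 scale (SE 0.124, adjusted p = 0.000312), as was Lipe, at -0.59 (SE 0.124, adjusted p = 0.00203). These 2 of the 8 genes were the ones called, where 33.7% of all genes were called in that fit. With a smaller set of 8 markers, among them Adipoq, Plin1 and Pparg and without Lep, as the covariate (a choice made after the values were seen), the same 2 genes were called, Pnpla2 at -0.72 (SE 0.116) and Lipe at -0.53 (SE 0.128), against a background of 32.7%. The mean of the 8 markers was itself higher on HFD, at 8.19 against 7.94 in controls and 8.11 against 7.71 in knockout mice. Within genotypes and with 17 markers, Pnpla2 was lower on HFD in controls, at -0.65 (SE 0.171, adjusted p = 0.0645), and in knockout mice, at -0.85 (SE 0.195, adjusted p = 0.0223). Lipe was lower in knockout mice, at -0.79 (SE 0.138, adjusted p = 0.00855), and stood at -0.37 in controls (SE 0.202, adjusted p = 0.299). In these fits 1482 of 15311 genes were called in controls and 2757 of 15705 in knockout mice. No member was called between genotypes with the covariate. At an unadjusted p under 0.05 (edgeR quasi-likelihood test, 17 markers), 3 of the 8 genes passed on HFD, beside 862 of 15228 genes tested. On LFD 0 of the 8 passed, beside 524 of 15717 genes. Over both diets 2 of the 8 passed, beside 855 of 15574 genes.

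**Figure D4:**
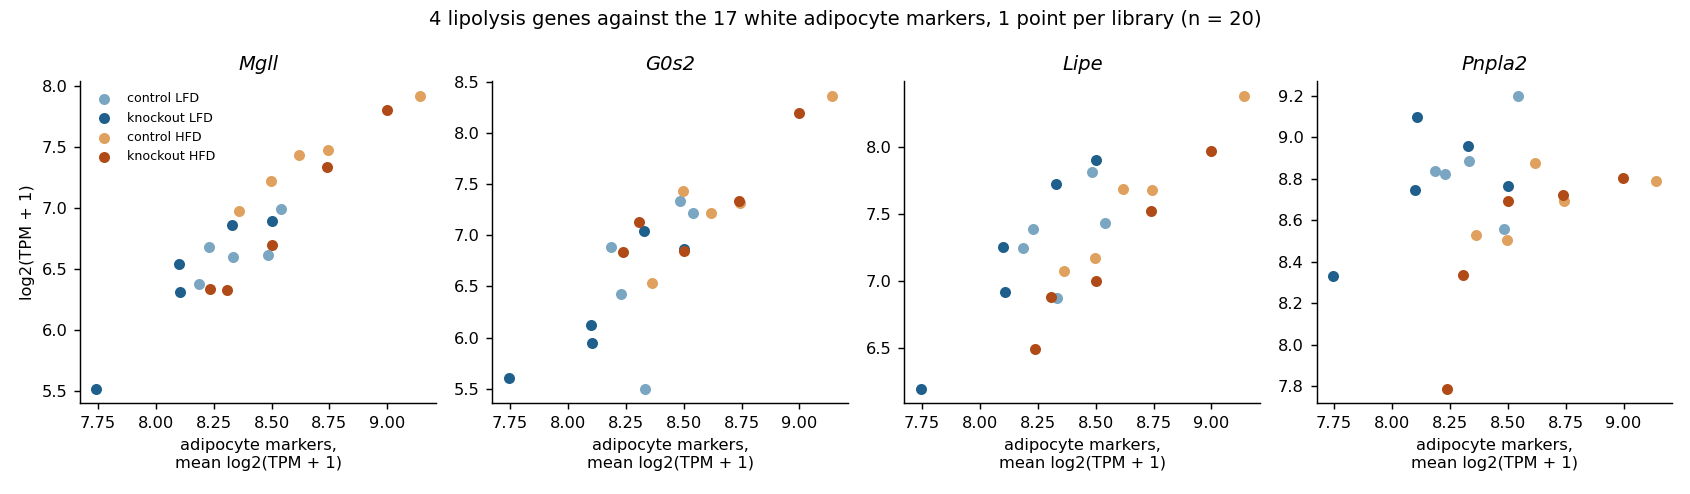
Log2(TPM + 1) of Mgll, G0s2, Lipe and Pnpla2 (vertical axis) against the mean log2(TPM + 1) of 17 white adipocyte markers (horizontal axis), 1 point per library coloured by group. With the markers in the fit, the diet difference is 0.027 for Mgll and for G0s2, -0.59 for Lipe and -0.76 for Pnpla2.

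The share of transcripts detected also differed between libraries. With that share as a covariate, added after the data were seen, the diet fit over both genotypes called Mgll (adjusted p = 6.8e-05), G0s2 (0.000691), Pnpla3 (0.00649) and Lipe (0.0717) higher and Pde3b lower (0.0761), and no member was called between genotypes. Leaving out knockout HFD 18 and knockout LFD 9 together called Mgll (adjusted p = 0.0119), G0s2 (0.0857) and Pnpla3 (0.0902). The share of all genes called in these fits is not given here, so that the calls of members stand without a background.

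Members differed in how they varied from mouse to mouse. Over the deviations of the 20 libraries from their group means, Lipe and Mgll had a Pearson correlation of 0.90, Lipe and G0s2 of 0.85 and Abhd5 and G0s2 of 0.74, as a description over libraries that share depth and adipocyte content. Pde3b lay between -0.32 and 0.067 with each of the other 7 members, and Prkar2b between -0.32 and 0.25. The genes most alike over the 20 libraries, among 13976 with a mean of at least 1 TPM, differed by member. Lipe was most like Cebpa, a transcription factor of adipocytes and 1 of the 17 markers, with r = 0.97 (0.98 over deviations from group means), followed by Npdc1 (0.96) and Sgta (0.95). Mgll was most like Col18a1 (0.96), Kctd3 (0.96) and Slc48a1 (0.95). Pnpla3 was most like Prkcsh (0.92), and Xpnpep1 stood at 0.89. G0s2 was most like 1110007C09Rik (0.95), Tppp3 (0.94) and Zfp598 (0.93), and Abhd5 most like 1600014C10Rik (0.87), Pex13 (0.84) and Tubg1 (0.84). Pnpla2 was most like Npr2 (0.88), Xpnpep3 (0.81) and Gas7 (0.81), Prkar2b most like the imprinted gene Peg3 (0.90), Ptplb (0.89) and Prps1 (0.88), and Pde3b had the lowest values, with Snora75 (0.71), Rpa3 (0.68) and Rwdd3 (0.65).

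The genes around the 8 members were counted by list, first those that drive lipolysis. Of 18 genes of cAMP signalling, from adrenergic receptors to kinase subunits, 3 were called in the diet fit over both genotypes, all lower on HFD, a share below the 25.2% called over all genes in that fit, with a median of -0.036 against -0.026 over all genes. Among them were the β3-adrenergic receptor Adrb3, the main catecholamine receptor of mouse fat (-0.73, SE 0.167, adjusted p = 0.00376), and the natriuretic peptide receptor Npr1 (-0.32, SE 0.111, adjusted p = 0.0494). Adrb3 fell from a mean of 29.5 TPM to 17.8 TPM in controls. Within controls it was the only gene called of the 18 (log2 fold change -0.90, adjusted p = 0.0544), and within knockout mice none of the 18 was called, where Gnas stood at 0.22 (adjusted p = 0.379) and Prkar1a at 0.022 (adjusted p = 0.957).

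Of 20 genes for signals that restrain lipolysis, 19 were tested and 9 were called over both genotypes, 6 higher and 3 lower on HFD, with a median of 0.038. Where 25.2% of all genes were called in this fit, 4 of the 9 are described. The prostaglandin E receptor Ptger3 rose from means of 62.7 and 74.7 TPM on LFD to 196 and 199 TPM on HFD in control and knockout mice (log2 fold change 1.38, SE 0.157, adjusted p = 4.74e-06). The adenosine A1 receptor Adora1 rose by 0.95 (SE 0.111, adjusted p = 5.89e-06), and the inhibitory G protein subunit Gnai2 by 0.74 (SE 0.149, adjusted p = 0.0013). The insulin receptor substrate Irs1 fell by 1.04 (SE 0.125, adjusted p = 8.66e-06). Within each genotype Ptger3, Adora1 and Irs1 were called in the same direction, in controls at 1.45, 1.04 and -1.23 and in knockout mice at 1.31, 0.86 and -0.85. The called count was 5 of 19 in controls, with Gnai2 at 0.76, and 7 of 19 in knockout mice, with the insulin receptor Insr at -0.54, where 9.32% and 9.4% of all genes were called.

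Lipid droplet proteins and partners of the lipases had the highest median of the 5 lists, 0.39, and 8 of 16 were called over both genotypes, 6 higher and 2 lower, against 25.2% of all genes. Cavin1 (annotated as Ptrf) rose by 1.02 (SE 0.123, adjusted p = 8.64e-06) and Cav1 by 0.86 (SE 0.139, adjusted p = 0.000166), both for coat proteins of caveolae at the adipocyte surface. Hilpda (annotated as 2310016C08Rik), which encodes another inhibitor of PNPLA2, rose by 1.38 (SE 0.272, adjusted p = 0.0011), from means of 3.78 and 3.10 TPM to 13.2 and 7.22 TPM. The perilipin Plin4 rose by 0.77 (SE 0.158, adjusted p = 0.00158). In controls 5 of 16 were called, 4 higher, among them Cavin1 at 0.92, Hilpda at 1.55 and Plin4 at 0.74, and 1 lower. The lower gene was Cidea, a droplet protein of brown and beige adipocytes, at -2.58 (SE 0.538, adjusted p = 0.0216). In knockout mice 2 of 16 were called, Cavin1 at 1.12 and Cav1 at 0.89. These counts stood beside 9.32% of all genes in controls and 9.4% in knockout mice. Markers of brown and beige adipocytes summed to between 115 and 793 TPM in control LFD, 73.5 and 521 TPM in knockout LFD, 62.6 and 247 TPM in control HFD and 113 and 961 TPM in knockout HFD libraries, and their part in these values was not tested.

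Of 15 other lipases and patatin-like genes 12 were tested over both genotypes, with 3 called higher, 2 called lower and a median of -0.18, where 25.2% of all genes were called. The lysosomal acid lipase Lipa rose by 0.49 (SE 0.1301, adjusted p = 0.0102), the phospholipase Pnpla8 by 0.31 (SE 0.098, adjusted p = 0.0298) and Abhd12 by 0.40 (SE 0.136, adjusted p = 0.0419), whereas the lipase Ddhd2 fell by 0.62 (SE 0.112, adjusted p = 0.000525). Within controls 3 of 12 were called, with the carboxylesterase Ces1f at -0.79, and within knockout mice Ddhd2 at -0.43 was the 1 called of 12, close to the 9.4% called over all genes. Among 16 lipogenic genes of the fed state 15 were tested, and 11 were called over both genotypes, 8 lower and 3 higher, with a median of -1.05 and against the same 25.2%. The acetyl-CoA carboxylase Acaca (log2 fold change -2.29, SE 0.241, adjusted p = 2.24e-06), the elongase Elovl6 (-2.63, SE 0.277, adjusted p = 2.34e-06), the carbohydrate-responsive factor Mlxipl (-1.18, SE 0.1301, adjusted p = 3.62e-06) and the citrate lyase Acly (-1.89, SE 0.248, adjusted p = 2.1e-05). In knockout mice 10 of 15 were called, 8 lower and 2 higher, among them Elovl6 at -2.41, Acaca at -2.17, Mlxipl at -1.02 and Insig1 at 1.57. In controls 9 of 15 were called, 8 lower and 1 higher. These counts stood beside 9.4% of all genes in knockout mice and 9.32% in controls. Pnpla3, a gene of the fed state by background, stood at 0.32 in the same fit, on the other side of 0 from the list's median.

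Between genotypes none of the genes of these 5 lists was called on either diet or over both diets. On HFD the medians lay between -0.22 for the lipid droplet list and 0.19 for the lipogenic list, and on LFD between -0.29 for the lipid droplet list and 0.0040 for cAMP signalling. The most abundant gene of each list gave, on HFD, -0.028 for Fabp4 (SE 0.168), -0.056 for Gnas (SE 0.108), 0.033 for Ptger3 (SE 0.161), -0.26 for Lpl (SE 0.182) and -0.12 for Scd1 (SE 0.215).

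**Figure D5:**
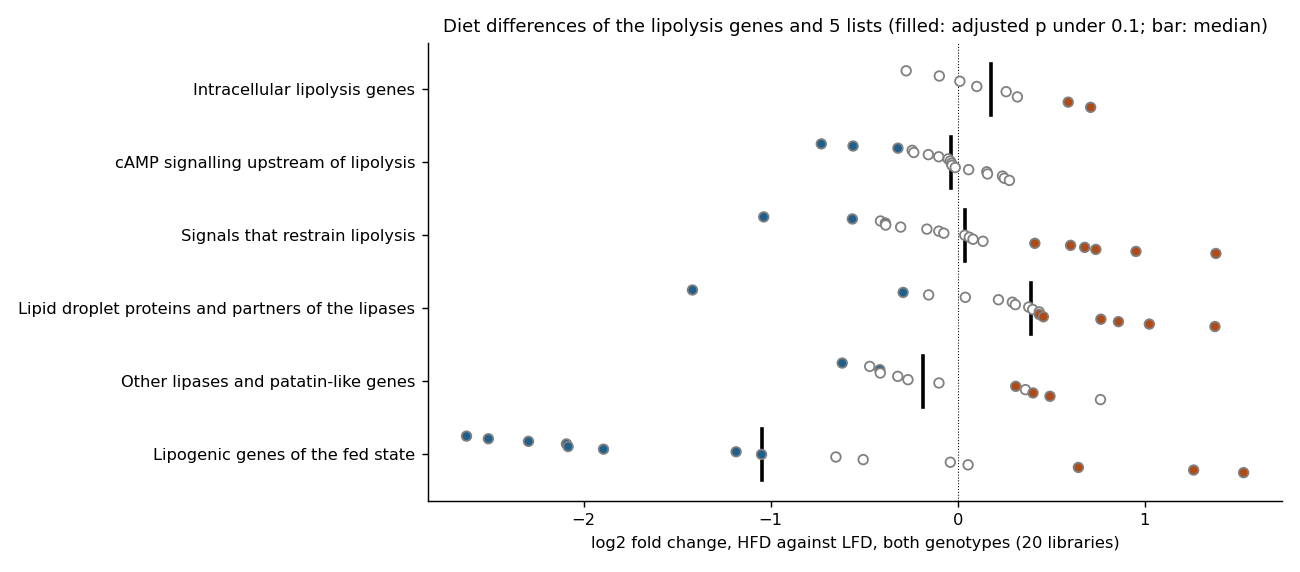
Log2 fold change of HFD against LFD over both genotypes (horizontal axis) for each tested gene of the 8 lipolysis genes and of 5 lists (vertical axis), filled in orange where called higher and in blue where called lower, with the list's median as a bar. Lipogenic genes spread farthest to the left, with a median of -1.05, and the 8 lipolysis genes stay between -0.28 and 0.71.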

How the data were processed

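Total RNA of iWAT was depleted of ribosomal RNA and sequenced as stranded libraries. The authors quantified the reads with Salmon (0.13.1 in the submitters' processing notes, which also name STAR 2.5.3) on the Ensembl transcripts of NCBIM37 (mm9), and deposited estimated counts and TPM per transcript, not scaled between libraries. Here transcripts were summed per gene with GENCODE vM1, which held 94334 of 96533 of them, and unmatched ones took 0.377% to 0.581% of counts. No deposited column was without a sample. Gene sums were rounded and tested with edgeR's quasi-likelihood test (TMM scaling, a minimum mean of 0.5 TPM per gene, Benjamini-Hochberg over all genes tested, call at an adjusted p under 0.1, the threshold of the study's methods). Versions were R 4.3.3, edgeR 4.0.16, limma 3.58.1 and DESeq2 1.42.0, and the fits were tested on simulated data. For ratios and transcript shares, exact permutation tests (two-sided) were used. DESeq2, limma, length offsets, other filters and scaling, a marker covariate and leaving out each library were the alternatives. All 8 members are named. From each list the called genes of smallest p are named, at most 4 per comparison, or the 2 of highest mean TPM where none was called, and for each member the 3 genes most alike, apart from 2 genes that are not reported here. Although the rule for the members uses no measured value, members and lists were chosen with earlier results of these data known. Each library is a separate mouse by the labels. Animal numbers were not shared between groups.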

Additional observations from a re-analysis of the deposited data

Results flagged for a closer look

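Each group of 5 libraries was searched for a value set apart from the rest, for the 8 genes and the 5 ratios, 52 groups in all. The gap to the nearest value, as a share of the range, had to exceed 0.71, which chance alone passes in about 1 of 20 groups. Knockout HFD 21 was set apart for 3 genes, among knockout HFD mice. It held 90.2 TPM of Pnpla3, where the other 4 lay between 51.1 and 56.4 TPM. It held 60.7 TPM of Abhd5, where the others lay between 28.1 and 37.1 TPM. It held 292 TPM of G0s2, where the others lay between 113 and 160 TPM. This library had the highest mean of adipocyte markers in its group, 8.999 on the log2 scale, and its part in these values was not tested. Without it G0s2 on HFD against LFD in knockout mice stood at 0.64. No other value was set apart, and 3 of 52 groups is close to the rate of chance given above. The 3 genes also varied together, with correlations between 0.61 and 0.74 over deviations from group means.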

How the results depend on the processing

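No paired analysis was possible because no groups share replicate numbers. No member was called between genotypes, in the interaction or for transcript shares under any alternative run. In controls on HFD against LFD the 1 member called became 0 with no filter on low values or with 4 groups in 1 fit, 2 with limma on log2(TPM + 1) or log2(TPM + 0.1), 2 with transcripts detected as a covariate, and 0 to 1 without single libraries. With 17 or 8 adipocyte markers it stayed at 1, but the gene called was Pnpla2, lower on HFD, and no longer Mgll. In knockout mice the 0 became 1 with DESeq2, 2 with 17 or 8 adipocyte markers as a covariate, 3 with transcripts detected, and 0 to 1 without single libraries. Over both genotypes the 2 became 3, with Pnpla3, under DESeq2, DESeq2 size factors in edgeR, no filter, or without knockout HFD 18 and LFD 9. They became 4 with limma at either pseudocount, 5 with transcripts detected, and 1 to 3 without single libraries. With offsets for transcript length they became 6, of which 4 were higher and 2, Pnpla2 and Pde3b, were lower. With 17 or 8 markers the 2 called were Pnpla2 and Lipe, both lower. The 0 of 16 ratios became 4 on TMM-scaled counts, which are not corrected for transcript length. The causes were not tested. Over all genes DESeq2 called 100 between genotypes on HFD against 1, 17 against 1 on LFD, 32 against 6 over both diets, 2205 against 1427 between diets in controls and 2247 against 1476 in knockout mice. Between diets over both genotypes it called 4319 against 3931. Limma on log2(TPM + 1) called 2139 of 15311 genes between diets in controls and 4736 of 15574 over both genotypes. For length offsets, transcripts detected, other filters and scaling, or fits without libraries, the share over all genes is not given here. Counts of members under those settings thus have no background beside them.

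Signs turned for values near 0. For Pde3b, knockout against control on HFD turned from 0.020 to -0.32 with limma at either pseudocount, -0.31 with length offsets, -0.037 with adipocyte markers and -0.072 with transcripts detected. On LFD it turned from 0.011 to -0.0031 with no filter, -0.21 with limma, -0.29 with offsets, -0.26 with markers and -0.37 with transcripts detected. Over both diets it turned to -0.0019 with no filter, -0.26 with limma, -0.30 with offsets, -0.11 with markers, -0.19 with transcripts detected and -0.062 without knockout HFD 18 and LFD 9. Knockout against control turned to 0.066 and 0.032 for G0s2 on HFD, and to 0.077 and 0.14 for Lipe on LFD, with markers and with transcripts detected. With 17 markers, HFD against LFD in controls turned to -0.069 for Pnpla3, -0.37 for Lipe, -0.18 for Abhd5 and -0.16 for G0s2, and with 8 markers to -0.28 for Lipe, -0.15 for Abhd5 and -0.039 for G0s2. In knockout mice it turned to -0.12 and -0.15 for Mgll and to 0.33 and 0.25 for Pde3b with 17 and 8 markers, and to 0.10 for Lipe with transcripts detected. Over both genotypes Lipe turned to -0.032 with offsets, and with 17 and 8 markers Lipe turned to -0.59 and -0.53, Abhd5 to -0.061 and -0.083 and Pde3b to 0.14 and 0.074. The interaction turned for Pnpla2 to -0.13 (limma), -0.034 (offsets), -0.11 (markers) and -0.14 (transcripts detected), for Abhd5 to -0.042 and -0.044 (limma, by pseudocount), for Pnpla3 to 0.054 (without knockout HFD 18 and LFD 9) and for Pde3b to 0.078 (markers), 0.082 (without both libraries) and 0.13 (transcripts detected).

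Leaving out single libraries also turned signs. Knockout against control on HFD ranged from -0.0027 to 0.31 for Pnpla3, -0.42 to 0.17 for G0s2, -0.072 to 0.093 for Pde3b and -0.23 to 0.0041 for Prkar2b. On LFD it ranged from -0.17 to 0.13 for Pde3b, and over both diets from -0.078 to 0.070. HFD against LFD in controls ranged from -0.11 to 0.24 for Lipe and -0.056 to 0.23 for Abhd5. In knockout mice it ranged from -0.28 to 0.046 for Lipe and -0.23 to 0.10 for Pde3b, and over both genotypes from -0.10 to 0.084 for Lipe. The interaction ranged from -0.13 to 0.18 for Pnpla2, -0.16 to 0.17 for Pnpla3, -0.27 to 0.11 for Mgll, -0.084 to 0.21 for Abhd5 and -0.13 to 0.18 for Pde3b. In the comparisons of 5 against 5 mice the SEs of the members ranged from 0.14 to 0.38 on the log2 scale.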
